A study of Mus musculus with 12 samples.

Results

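The integrated stress response genes described here are 40 named genes in the Atf4 programme of mouse cells: stress regulators, feedback inhibitors, amino acid transporters, enzymes of serine, proline and related synthesis, and a few secreted, membrane and transfer RNA export proteins. A gene was measured by the probe sets annotated to it alone, of which the brightest was used. By that rule 39 of the 40 had a probe set, 1 each, out of 19938 genes on the array, and all 39 passed the filter on dim genes that left 15950 genes tested. Pycr1, an enzyme of proline synthesis, had no probe set of its own, and Phgdh also had 1 probe set shared with other genes, which was not used.

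The 12 arrays came from embryoid bodies, the clusters that embryonic stem (ES) cells form as they differentiate, grown from A2lox ES cells of 129P2/OlaHsd background. In these cells doxycycline (dox, 0.5 µg/ml) switches on either microRNAs that target the Geminin transcript (gene Gmnn), the product being a nuclear protein that restrains replication licensing and binds chromatin regulators, or Geminin itself. The knockdown line was collected on day 4 with dox from day 0 (n = 3) or with no dox (n = 3). The overexpression line was collected on day 5 with dox from day 3 (n = 2) or with no dox (n = 2), and on day 4 with dox from day 3 (n = 1) or with no dox (n = 1), the day 4 arrays being replicate 3. Both lines share the A2lox background and were grown on irradiated feeder fibroblasts that were removed before aggregation, per the labels. The labels do not say whether replicates were separate cultures, so p-values measure only how far these samples scatter, and that scatter may be technical. In the overexpression line day cannot be told apart from replicate 3.

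When amino acids run short, unfolded proteins accumulate or haem is lacking, kinases phosphorylate the translation factor eIF2. Most protein synthesis then slows while the messenger of Atf4 is translated more. Atf4 protein pairs with C/EBP family members on a composite promoter element and raises the transcription of genes for amino acid uptake, synthesis and transfer RNA charging, and of brakes such as Trib3 and Ppp1r15a that end the response. Because Atf4 is controlled largely at translation, its messenger level alone does not give its activity. Dividing pluripotent cells draw heavily on amino acid uptake and on one-carbon units for nucleotide synthesis.

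The composite C/EBP-ATF response element, searched on both strands as TGATGNAA, was found in the promoter windows of 13 of the 34 genes of the set that have a window in the RefSeq table (38.2%), against 369 of 12583 tested genes (2.93%) and 1219 of 27025 genes in the whole table (4.51%). Each window runs from 250 bases before to 50 bases after the annotated start in GRCm38.p6, and a gene with several windows counted once. The 250 bases before the start are shown for the 7 genes that carry the element there and were picked by the rule for genes described with full statistics, 5′ to 3′ on the gene's strand with the element in capitals. The windows are chr7:126625471-126625720 on the minus strand for Nupr1, chr12:85599166-85599415 on the plus strand for Jdp2, chr2:119350992-119351241 on the plus strand for Chac1, chr6:7693210-7693459 on the minus strand for Asns, chr19:27216770-27217019 on the plus strand for Vldlr, chr7:45615491-45615740 on the minus strand for Fgf21 and chr8:94386179-94386428 on the plus strand for Herpud1.
Nupr1: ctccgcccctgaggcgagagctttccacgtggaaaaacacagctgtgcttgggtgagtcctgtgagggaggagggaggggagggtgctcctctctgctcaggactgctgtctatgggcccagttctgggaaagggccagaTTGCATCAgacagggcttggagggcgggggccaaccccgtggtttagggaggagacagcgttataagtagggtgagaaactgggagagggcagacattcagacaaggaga
Jdp2: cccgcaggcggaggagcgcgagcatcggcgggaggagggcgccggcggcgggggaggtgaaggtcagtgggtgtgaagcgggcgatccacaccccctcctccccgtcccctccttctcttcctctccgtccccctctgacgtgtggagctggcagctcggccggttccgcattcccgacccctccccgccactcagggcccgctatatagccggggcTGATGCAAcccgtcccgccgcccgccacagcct
Chac1: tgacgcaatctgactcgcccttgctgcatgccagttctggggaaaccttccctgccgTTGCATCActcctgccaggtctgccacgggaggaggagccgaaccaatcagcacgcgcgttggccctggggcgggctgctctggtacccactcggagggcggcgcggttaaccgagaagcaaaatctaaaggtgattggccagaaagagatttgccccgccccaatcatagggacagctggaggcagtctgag
Asns: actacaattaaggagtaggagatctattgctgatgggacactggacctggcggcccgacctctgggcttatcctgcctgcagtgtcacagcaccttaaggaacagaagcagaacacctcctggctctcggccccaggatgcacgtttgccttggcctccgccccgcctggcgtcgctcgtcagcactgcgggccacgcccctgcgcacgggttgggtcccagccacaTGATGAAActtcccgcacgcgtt
Vldlr: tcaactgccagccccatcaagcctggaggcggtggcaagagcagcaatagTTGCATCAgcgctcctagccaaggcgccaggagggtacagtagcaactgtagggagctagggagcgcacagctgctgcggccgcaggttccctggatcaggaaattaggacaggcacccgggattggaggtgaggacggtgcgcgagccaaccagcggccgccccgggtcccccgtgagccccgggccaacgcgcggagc
Fgf21: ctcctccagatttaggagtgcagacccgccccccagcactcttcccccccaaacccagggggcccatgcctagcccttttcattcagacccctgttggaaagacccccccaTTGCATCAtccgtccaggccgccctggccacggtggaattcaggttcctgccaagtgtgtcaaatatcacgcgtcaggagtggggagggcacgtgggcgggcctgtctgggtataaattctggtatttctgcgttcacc
Herpud1: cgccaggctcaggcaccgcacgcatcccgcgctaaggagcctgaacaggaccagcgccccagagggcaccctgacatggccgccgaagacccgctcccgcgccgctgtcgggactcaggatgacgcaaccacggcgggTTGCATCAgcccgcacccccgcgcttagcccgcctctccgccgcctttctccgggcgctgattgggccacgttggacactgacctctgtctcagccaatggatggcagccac
In 6 of these 7 genes the letters were TTGCATCA or its complement TGATGCAA, and in Asns they were TGATGAAA. Atf3, Pck2, Pycr1 and Slc7a11 also held the element before the start, Slc7a11 with 2 copies, while in Slc1a4 and Trib3 it overlapped the transcribed part. The cAMP response element TGACGTCA occurred in 1 of the 34 windows (Ppp1r15a), near its share among tested genes (3.16%). The ER stress element, through which Atf6 and Xbp1 act on chaperone genes, occurred in 0 of the 34, in 8 of 18 ER chaperone and Atf6 or Xbp1 genes, and in 17 of 12583 tested genes (0.135%). Among the related genes, 4 of 11 aminoacyl-tRNA synthetases and 0 of 18 ER chaperone genes held the C/EBP-ATF element. A match is a stretch of letters, not a measured binding site.

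**Figure D1:**
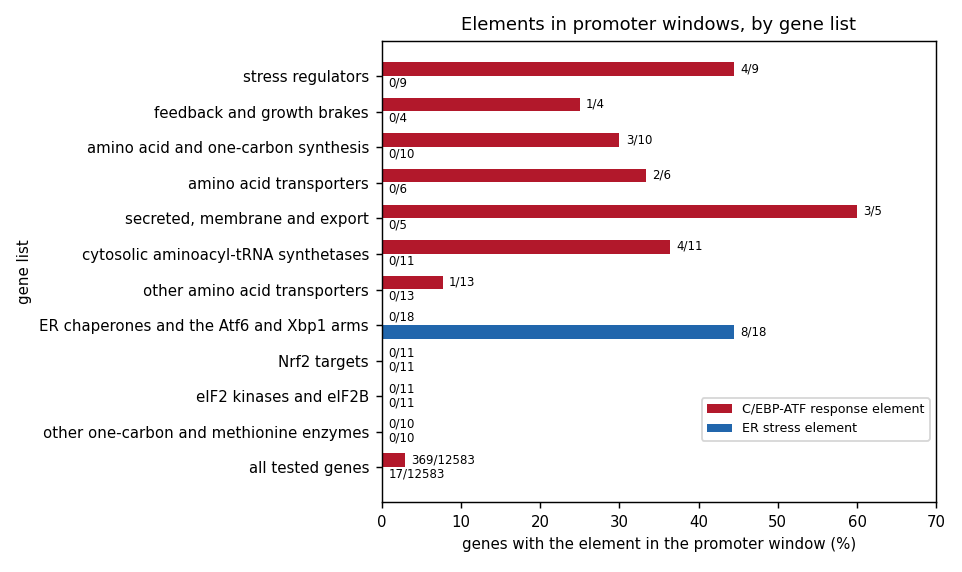
Share of genes (percent, horizontal axis) whose RefSeq promoter window holds the C/EBP-ATF response element (red) or the ER stress element (blue), by gene list (vertical axis), with counts beside the bars. The C/EBP-ATF element stands in 1 to 4 genes of each of the 5 groups described here and in 4 of 11 aminoacyl-tRNA synthetases, and the ER stress element in 8 of 18 ER chaperone genes.

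Levels below are log2 intensities after quantile normalization, and differences are dox minus no dox from 1 limma model of all 12 arrays, with standard errors (SE) and p-values adjusted over the 15950 tested genes. Gmnn itself stood at 9.66, 9.74 and 9.63 in the dox arrays of the knockdown line (replicates 1, 2 and 3), against 10.33, 10.15 and 10.05 with no dox. In the overexpression line it stood at 11.38 and 10.83 with dox on day 5, against 10.29 and 10.15 with no dox, and at 11.04 against 10.35 in the day 4 pair. Its groups did not overlap in either line (exact two-sided permutation p = 0.1 in the knockdown line and 0.1667 in the overexpression line, each the smallest its design allows). Marker genes set some arrays apart. In the knockdown line the summed signal of 12 visceral and primitive endoderm markers was 12018 with dox and 15935 with no dox in replicate 2, against 3838 to 5967 in the other 4 arrays, and that of 8 primitive streak markers was 2281 and 1285 in replicate 2, against 3140 to 7046. On day 5 of the overexpression line replicate 2 had streak sums of 6075 with dox and 6234 with no dox, replicate 1 having 11265 and 11822. The 12 feeder fibroblast markers summed to between 2003 and 3046 on all 12 arrays, and the 12 pluripotency markers to between 21673 and 37305. No marker was listed at 0 on any array. Results below are therefore also given without the replicate 2 arrays. In these whole embryoid bodies fewer cells of a type and less RNA per cell cannot be told apart.

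In the knockdown line the genes of the stress programme were mostly lower with dox, by small amounts. Of 39 genes, 37 had a negative difference, where 47.3% of all tested genes did, and the median difference was -0.25, against 0.01 over all tested genes. The exceptions were the arginine and lysine transporter Slc7a3 (0.05) and the neutral amino acid transporter Slc38a2 (0.02). No gene of the set passed the test (limma adjusted p = 0.965 or higher), in a comparison that called 1 of 15950 genes (0.00627%). At an unadjusted p under 0.05 there was 1, Jdp2, where 1.59% of all tested genes were that low. Each of the 3 dox arrays lay below the no dox array of the same number for 26 of 39 genes, against 12.2% of tested genes, and for 0 genes did each lie above it. The groups did not overlap for 6 genes (Atf4, Atf5, Ddit3, Cebpb, Chac1 and Psat1), where 3.25% of tested genes lay wholly lower. Without both replicate 2 arrays 34 of 39 were lower, with a median of -0.23. With median centring in place of quantile normalization 34 were lower and the median was -0.15, while the median of all tested genes was 0.07. Visceral endoderm markers were lower in 11 of 11 tested (median -0.38), pluripotency markers in 10 of 12 (median -0.34) and streak markers higher in 8 of 8 (median 0.73), with 0 of these passing the adjusted test, and their part in the result was not tested.

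**Figure D2:**
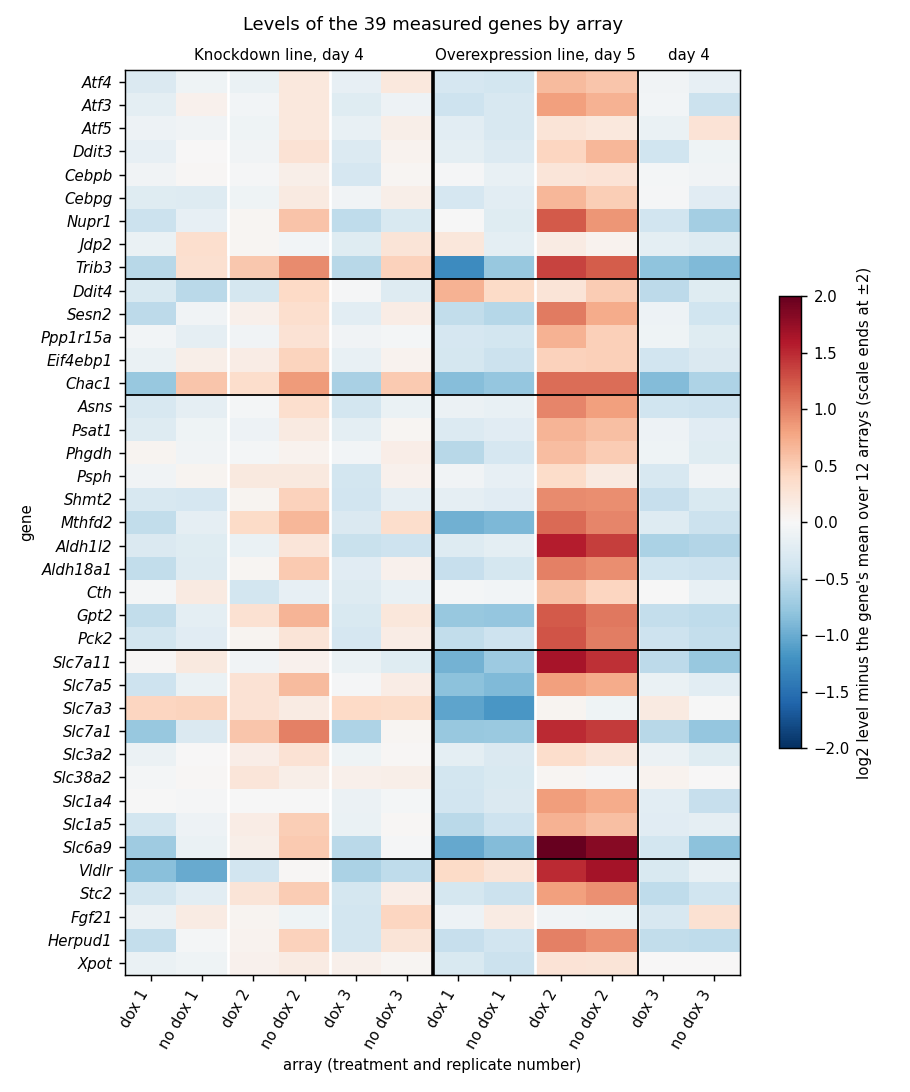
Level of each of the 39 measured genes (vertical axis, by group) on each of the 12 arrays (horizontal axis), as the log2 level minus the gene's mean over the 12 arrays. Both replicate 2 arrays of the overexpression line on day 5 are dark red for most genes, and in the knockdown line the dox array is paler or bluer than its neighbour with no dox for most genes.

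Among the 9 stress regulators, the transcription factors and their partners, all 9 differences were negative in the knockdown line (median -0.29). Atf4, the factor that gives the programme its name, stood at 10.68, 10.84 and 10.80 with dox, against 10.89, 11.17 and 11.17 with no dox. Every dox array was below every control, and the difference was -0.30 ± 0.26 (SE; limma adjusted p = 0.965; exact two-sided permutation p = 0.1, n = 3 each). Trib3, a pseudokinase that Atf4 induces and that restrains it in turn, stood at 7.89, 8.99 and 7.89 with dox, against 8.76, 9.39 and 8.90 with no dox. Its replicate 2 dox array lay within the range of the controls, and the difference was -0.76 ± 0.64 (1.70-fold lower, limma adjusted p = 0.965). Nupr1, a small stress-induced nuclear protein, had 7.55, 8.02 and 7.48 with dox, against 7.82, 8.55 and 7.68 with no dox, a difference of -0.33 ± 0.36. Its groups overlapped, and without the replicate 2 control the difference was -0.06. Jdp2, a bZIP repressor, differed by -0.30 ± 0.13 (limma adjusted p = 0.965), the only gene of the set below 0.05 unadjusted, with replicates 1 and 3 at -0.47 and -0.51 and replicate 2 at 0.09. Ddit3, the pro-apoptotic factor also called CHOP, stood at 7.58, 7.68 and 7.49 with dox, against 7.75, 8.05 and 7.82 with no dox. Atf3, Atf5, Cebpb and Cebpg, the other bZIP factors of the list, had differences between -0.22 and -0.14.

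The 5 feedback and growth brakes were all lower with dox in the knockdown line (median -0.26). Chac1, an enzyme that breaks down glutathione, had the largest difference of the 39. It stood at 7.59, 8.70 and 7.70 with dox, against 8.92, 9.21 and 8.88 with no dox, a difference of -1.01 ± 0.54 (2.01-fold lower, limma adjusted p = 0.965; exact two-sided permutation p = 0.1). All 3 dox arrays lay below all 3 controls, though replicate 2 came within 0.2 of the lowest control, and over the 27 alternative settings the difference ran between -1.36 and -0.80. Sesn2, a leucine sensor that restrains mTORC1, stood at 9.86, 10.49 and 10.17 with dox, against 10.32, 10.71 and 10.53 with no dox, a difference of -0.35 ± 0.39. Its groups overlapped through replicate 2. Eif4ebp1, which holds back cap-dependent translation, differed by -0.26 ± 0.25. Ddit4, an mTORC1 inhibitor, and Ppp1r15a, the phosphatase subunit that reverses eIF2 phosphorylation, each differed by -0.09, with replicates on both sides of 0.

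All 11 enzymes of amino acid and one-carbon synthesis were lower with dox in the knockdown line (median -0.23). Mthfd2, the mitochondrial folate enzyme, stood at 9.47, 10.34 and 9.66 with dox, against 9.78, 10.62 and 10.31 with no dox, a difference of -0.42 ± 0.55. Gpt2, the mitochondrial alanine transaminase, stood at 8.48, 9.27 and 8.67 with dox, against 8.77, 9.64 and 9.20 with no dox, a difference of -0.40 ± 0.53. In both genes each dox array was below the control of its number while the groups overlapped, because replicate 2 stood above replicates 1 and 3 under both treatments. Without the replicate 2 dox array the differences were -0.67 for Mthfd2 and -0.63 for Gpt2, and without the replicate 2 control they were -0.22 and -0.18. The serine pathway enzymes Phgdh, Psat1 and Psph had differences of -0.06 ± 0.27, -0.23 ± 0.24 and -0.19 ± 0.17. Asparagine synthetase, Asns, stood at 11.58, 11.85 and 11.52 with dox, against 11.71, 12.22 and 11.76 with no dox, a difference of -0.25 ± 0.30. The remaining enzymes, Shmt2, Aldh1l2, Aldh18a1, Cth and Pck2, lay between -0.35 and -0.15.

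Of the 9 amino acid transporters 7 were lower with dox in the knockdown line (median -0.13). Slc7a1, the main cationic amino acid carrier, stood at 8.88, 10.19 and 9.02 with dox, against 9.34, 10.64 and 9.68 with no dox, a difference of -0.52 ± 0.66. The glycine transporter Slc6a9 stood at 6.98, 7.80 and 7.15 with dox, against 7.55, 8.21 and 7.67 with no dox, a difference of -0.50 ± 0.76. Both were lower in each same-numbered comparison and overlapped between groups. Without the replicate 2 dox array the differences were -0.94 for Slc7a1 and -0.75 for Slc6a9, and without the replicate 2 control they were -0.15 and -0.30. Slc7a5 and Slc3a2, the light and heavy chains of the large neutral amino acid exchanger, had differences of -0.26 ± 0.46 and -0.13 ± 0.17, and the cystine importer Slc7a11 had -0.08 ± 0.61. Among the 5 secreted, membrane and export genes, Herpud1, a membrane protein of ER-associated degradation, stood at 9.08, 9.63 and 9.19 with dox, against 9.52, 10.02 and 9.81 with no dox, a difference of -0.48 ± 0.38. Fgf21, a secreted hormone, stood at 7.45, 7.63 and 7.21 with dox, against 7.74, 7.48 and 8.0 with no dox, a difference of -0.31 ± 0.16, which was -0.07 without both replicate 3 arrays. Stc2, a secreted glycoprotein, Vldlr, a lipoprotein receptor, and Xpot, which exports transfer RNA, had -0.29, -0.12 and -0.03. None of the genes named in these groups passed the test in limma (adjusted p = 0.965 to 0.993). The SEs come from a spread shared by both lines. For Atf4 the SD was 0.08 with dox and 0.16 with no dox in the knockdown line. On day 5 of the overexpression line it was 0.69 and 0.65.

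**Figure D3:**
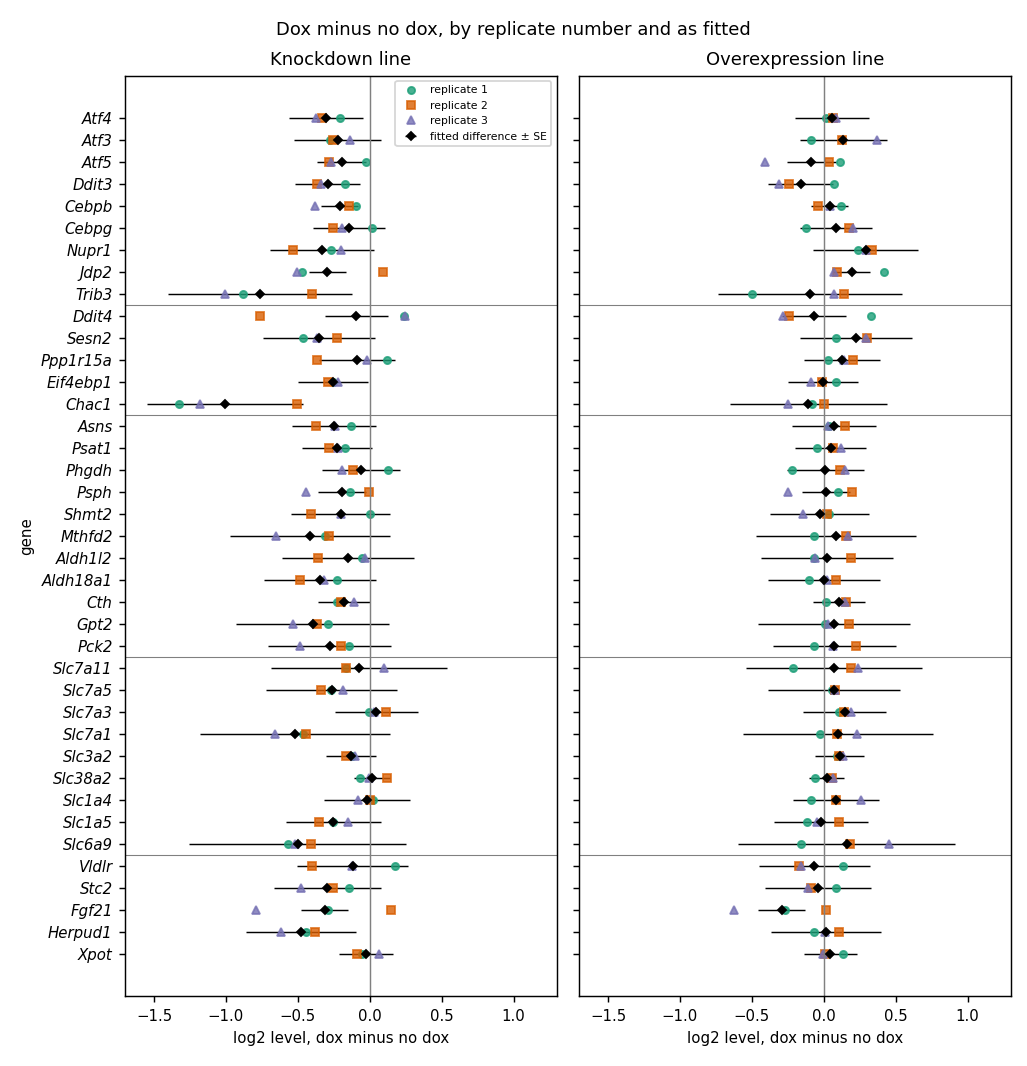
Dox minus no dox (log2 level, horizontal axis) for each of the 39 genes (vertical axis, by group) in the knockdown line (left) and the overexpression line (right). Coloured points are the arrays with the same replicate number, and black diamonds with bars are the fitted difference ± SE. In the knockdown line most points lie left of 0, and in the overexpression line they lie on both sides of it.

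In the overexpression line the dox differences of these genes were small and of both signs. Of 39 genes, 27 had a positive difference, where 56.7% of tested genes did, with a median of 0.05 against 0.01 over all tested genes. None passed the test (limma adjusted p = 1.00), in a comparison that called 1 of 15950 genes (0.00627%), and 0 had an unadjusted p under 0.05, where 149 tested genes did. Each dox array lay above the control of its number for 11 of 39 genes, against 16.6% of tested genes, and for 0 below it. In 0 of the 39 genes did the 3 dox arrays lie wholly on one side of the controls, where 3.79% of tested genes did. Without both replicate 2 arrays 16 of 39 were lower and the median was 0.02. The count of lower genes was 12 with all arrays, and it was 38 without the day 5 control of replicate 1 and 37 without the day 5 dox array of replicate 2. It was 2 without the day 5 control of replicate 2 and 4 without the day 5 dox array of replicate 1. Each of these settings left a day 5 array without the other array of its number, in a fit without a replicate block.

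Atf4 stood at 10.62 and 11.60 with dox on day 5, against 10.61 and 11.53 with no dox (replicates 1 and 2), and at 10.89 against 10.81 in the day 4 pair. The replicates were nearly a log2 unit apart under both treatments, and the dox difference was 0.06 ± 0.26. Nupr1 had the largest positive difference, at 7.97 and 9.21 with dox, against 7.74 and 8.87 with no dox on day 5, and 7.60 against 7.30 on day 4. Its fitted difference was 0.29 ± 0.36, and between arrays of the same number it was 0.24, 0.34 and 0.30 (replicates 1, 2 and 3). On day 5 its replicate 2 stood above replicate 1 by 1.23 with dox and 1.13 with no dox. Sesn2 (0.22 ± 0.39), Jdp2 (0.19 ± 0.13), Slc6a9 (0.16 ± 0.76), Slc7a3 (0.15 ± 0.29), Ppp1r15a (0.13 ± 0.26), Cth, which makes cysteine (0.10 ± 0.18), and Mthfd2 (0.08 ± 0.55) were also on the positive side. Slc6a9 and Mthfd2 were lower with dox in replicate 1 and higher in replicates 2 and 3. Fgf21 stood at 7.47 and 7.50 with dox, against 7.74 and 7.49 with no dox on day 5, and at 7.24 against 7.86 on day 4, a difference of -0.29 ± 0.16. Vldlr differed by -0.07 ± 0.39. Without the day 5 dox array of replicate 2, Atf4, Nupr1, Sesn2, Ppp1r15a, Cth, Mthfd2, Slc6a9 and Slc7a3 all had the opposite sign (-0.22 for Atf4). That setting kept the replicate 2 control in a fit without a replicate block. Between arrays of the same number Atf4 differed by 0.02, 0.07 and 0.08 (replicates 1, 2 and 3). Nupr1, Sesn2, Ppp1r15a, Cth and Slc7a3 were also higher with dox in each number, and Slc6a9 and Mthfd2 were not.

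The knockdown minus overexpression difference of the dox effects was negative for 39 of 39 genes, where 49.9% of tested genes were negative, with a median of -0.25. No gene of the set passed the test (limma adjusted p = 1.00), and 0 of 15950 tested genes did (0%). At an unadjusted p under 0.05 there was 1 gene of the set, Jdp2 (-0.49 ± 0.18), and there were 340 tested genes. For Chac1 and Trib3 the difference between lines was -0.90 ± 0.77 and -0.67 ± 0.90. Lower in all 3 same-numbered comparisons with knockdown and higher in all 3 with overexpression were 8 of 39 genes, against 2.46% of tested genes. The count of genes with a negative difference between lines, 39 with all arrays, was 37 without both replicate 2 arrays of the knockdown line. It was 37 without both of the overexpression line, and 15 without the day 5 dox array of replicate 2 alone. Without that array the median of the set was 0.07, and without the day 5 control of replicate 1 it was 0.02. Both settings left a day 5 array without the other array of its number, in a fit without a replicate block. Pluripotency markers were lower in 10 of 12 in the same difference (median -0.56) and streak markers higher in 8 of 8 (median 0.84), with 0 passing the test. With dox in the overexpression line itself the pluripotency markers were higher in 12 of 12 (median 0.21), none passing. The part of these cell type markers was not tested.

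**Figure D4:**
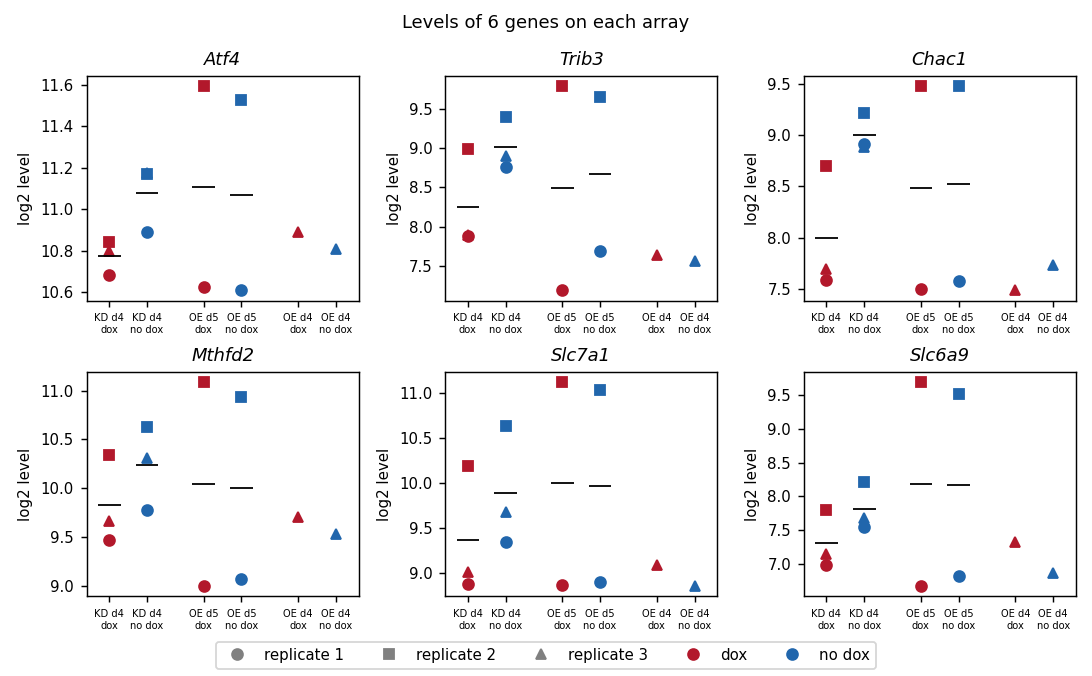
Log2 level (vertical axis, separate scale for each gene) of Atf4, Trib3, Chac1, Mthfd2, Slc7a1 and Slc6a9 on each array, by line, day and treatment (KD, knockdown; OE, overexpression), with replicates by symbol and the group mean as a bar. Replicate 2 (squares) is the highest array in nearly every group, and on day 5 of the overexpression line it stands 0.92 to 3.03 log2 units above replicate 1.

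The widest variation of these genes lay between replicates. Over the 39 genes the median within-group SD was 0.47, against 0.17 over all tested genes, and 37 of 39 were above that overall median. On day 5 of the overexpression line replicate 2 was above replicate 1 both with and without dox for 36 of 39 genes, against 39.3% of tested genes. It was above by more than 1 log2 unit under both treatments for 21 of the 39, where 104 of 15950 tested genes were (0.652%). The 21 genes thus made up 20.2% of those 104. The median distance was 1.14 with dox and 1.02 with no dox. Pluripotency markers stood apart in the same arrays. Of the 12, 9 were higher in replicate 2 under both treatments and 5 by more than 1 log2 unit, with medians of 0.84 with dox and 1.08 with no dox, and the summed signal was 29256 and 26861 in replicate 2, against 24511 and 21673 in replicate 1. Epiblast markers had medians of -0.93 and -0.73 and streak markers -0.78 and -0.64. Of 8 haemangioblast and endothelium markers, 6 were higher in replicate 2 under both treatments and 3 by more than 1 log2 unit. Their medians were 0.90 with dox and 0.77 with no dox. Their summed signal was 4765 and 5024 in replicate 2, against 2992 and 3224 in replicate 1. The part of these markers in the distances was not tested.

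The 3 largest distances with no dox were those of transporters. Slc6a9 stood at 9.70 with dox and 9.51 with no dox in replicate 2, against 6.67 and 6.82 in replicate 1, a distance of 3.03 with dox and 2.69 with no dox. Slc7a11 was 2.59 and 2.18 higher in replicate 2, and Slc7a1 2.25 and 2.14 higher. Among the regulators and brakes, Trib3 was 2.60 and 1.96 higher, Chac1 1.98 and 1.89, Sesn2 1.52 and 1.31, and Nupr1 1.23 and 1.13. Among the enzymes, Mthfd2 was 2.10 and 1.87 higher, Gpt2 1.99 and 1.82, Aldh1l2, a mitochondrial folate dehydrogenase, 1.84 and 1.58, and Pck2, the mitochondrial phosphoenolpyruvate carboxykinase, 1.74 and 1.44. Atf4 itself was 0.97 and 0.92 higher. The 3 exceptions were Fgf21 (0.03 with dox and -0.25 with no dox), Ddit4 (-0.44 and 0.13) and Jdp2 (-0.06 and 0.27). These are single arrays, so the distances carry no test. Slc7a11 and Aldh1l2 passed the filter on dim genes (mean log2 6.46) only through these replicate 2 arrays, so the filter favoured their distances. Slc7a11 stood at 8.34 with dox and 8.15 with no dox in replicate 2, against 5.76 and 5.98 in replicate 1. Aldh1l2 stood at 8.14 and 7.94, against 6.30 and 6.37. Both are among the 21 genes counted above.

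**Figure D5:**
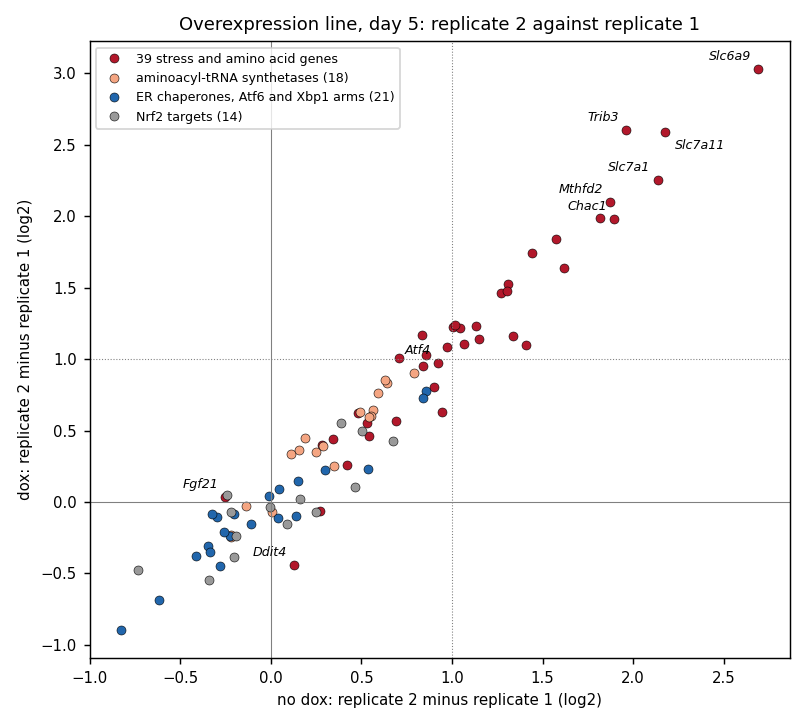
Replicate 2 minus replicate 1 on day 5 of the overexpression line (log2), with dox (vertical axis) against no dox (horizontal axis), for the 39 stress and amino acid genes and for 3 related lists. Of the red points, 21 lie beyond 1 on both axes (dotted lines). The ER chaperone and Nrf2 genes lie on both sides of 0, from -0.90 (Sdf2l1, dox) to 0.86 (Dnajb9, no dox).

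In the knockdown line replicate 2 was the highest of the 3 replicates under both treatments for 28 of 39 genes, against 15.1% of tested genes. Slc7a1 was 1.24 above the mean of replicates 1 and 3 with dox and 1.13 above it with no dox, and Trib3 was 1.10 and 0.56 above it. Replicate 2 was also highest under both treatments for 7 of 12 pluripotency and 7 of 11 endoderm markers. The endoderm and streak marker sums of these arrays differed from those of the other replicates as given above, and their part in the distances was not tested. Feeder fibroblast sums in the knockdown line were 2180 with dox and 2003 with no dox in replicate 2, against 2066 to 2479 in replicates 1 and 3. On day 5 of the overexpression line they were 3046 with dox and 2999 with no dox in replicate 2. Replicate 1 had 2652 and 2589 there. The part of these markers was not tested.

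The promoter element was set against these distances. Of the 12 measured genes with a C/EBP-ATF element, 9 were more than 1 log2 unit higher in replicate 2 under both treatments, and of the 21 with a window and no element, 8 were. Among tested genes outside the set the shares were 5 of 357 (1.40%) with the element and 56 of 12193 (0.459%) without it. The knockdown dox difference had a median of -0.29 in genes of the set with the element and -0.21 in those without. Each dox array was below the control of its number for 7 of 12 with the element (58.3%) and for 14 of 21 without it (66.7%). Vldlr, Chac1, Asns, Nupr1 and Herpud1, whose promoters are printed above, were 0.98 to 1.98 higher in replicate 2, while Jdp2 and Fgf21, which also carry the element, were among the exceptions. These shares are descriptions of single arrays, and Slc7a11, among the 9, passed the filter on dim genes only through the replicate 2 arrays.

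The other lists of the pathway had medians nearer to 0. Of 102 genes on 6 further lists, 94 had a probe set, and 0 passed the test for dox in either line. The 18 aminoacyl-tRNA synthetases, which charge transfer RNA and include known Atf4 targets, had a median knockdown difference of -0.02, with 9 of 18 lower. Cars and Sars, the cysteine and serine enzymes, had -0.22 ± 0.21 and -0.20 ± 0.18, and Farsa, a phenylalanine enzyme subunit, 0.14 ± 0.11. On day 5 of the overexpression line 14 of the 18 were higher in replicate 2 under both treatments (medians 0.42 with dox and 0.32 with no dox), and 0 by more than 1 log2 unit. The 21 genes of ER chaperones and the Atf6 and Xbp1 arms were higher in 16 of 21 cases with dox in the knockdown line (median 0.09). The chaperones Pdia4 and Hspa5 had 0.25 ± 0.15 and 0.24 ± 0.15, and the sensor kinase Ern1 had -0.28 ± 0.16. Their median distance of replicate 2 from replicate 1 on day 5 was -0.11 with dox and -0.20 with no dox. The eIF2 kinases and eIF2B subunits, the Nrf2 targets, the other amino acid transporters and the other one-carbon enzymes had median knockdown differences of 0.08, 0.01, 0.01 and 0.04.

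Day 5 was set against day 4 within the overexpression line, where the day 4 baseline rests on 1 pair of arrays. Of 39 genes, 34 were higher on day 5, where 49.9% of tested genes were, with a median of 0.41 against -0.000484 over all tested genes. No gene of the set passed the test, in a comparison that called 89 of 15950 genes (0.558%). Ddit4 was nearest, at 9.86 and 9.41 with dox and 9.53 and 9.66 with no dox on day 5, against 8.63 with dox and 8.92 with no dox on day 4. All 4 day 5 arrays were above both day 4 arrays, with a difference of 0.84 ± 0.23 (limma adjusted p = 0.136). Vldlr stood at 8.81 and 9.91 with dox and 8.68 and 10.09 with no dox on day 5, against 8.11 and 8.27 on day 4, a difference of 1.18 ± 0.41 (adjusted p = 0.218). Nupr1 differed by 0.99 ± 0.39 (adjusted p = 0.276). On the lower side were Slc7a3 (-0.64 ± 0.31, adjusted p = 0.375), Slc38a2 (-0.19 ± 0.13) and Atf5 (-0.08 ± 0.18). Visceral and primitive endoderm markers were higher on day 5 in 9 of 11 (median 0.71, smallest adjusted p = 0.0514), epiblast markers lower in 6 of 6 (median -0.67, 1 passing) and streak markers lower in 7 of 8 (median -0.33), and their part in the day difference was not tested. The sign of the whole set rested on replicate 2. Without its day 5 arrays 25 of 39 genes were lower on day 5, the median was -0.07 and 1 gene of the set was called (Slc7a3, -1.19, adjusted p = 0.0472), among 3 of 15950 tested genes (0.0188%). Vldlr and Nupr1 then differed by 0.55 and 0.40. That setting, and the one without the replicate 1 arrays, each set 1 day 5 replicate number against replicate 3 on day 4. The dox and no dox arrays of a number then count as separate observations of the day, in a fit without a replicate block. Deviations of same-numbered day 5 arrays correlated at 0.785, and spread between replicates comes only from the knockdown line. Calls in either setting therefore cannot tell day from replicate. Without the replicate 1 arrays 3 were lower, the median was 0.95 and 23 were called, among 350 tested genes (2.19%).

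On day 4 the fitted baselines, which stand for no dox, were higher in the knockdown line for 37 of 39 genes. The share over tested genes was 53.1%, and the median difference of the set was 0.35. The overexpression baseline also draws on its dox array and, through the dox effect shared between days, on the day 5 arrays. A fitted difference can therefore depart from that between the printed controls. With dox the direction differed between genes: Atf4 averaged 10.77 in the knockdown line, against 10.89 in the overexpression line, while Chac1 was higher in the knockdown line. No gene of the set passed the test, in a comparison that called 49 of 15950 genes (0.307%), and again the overexpression line had 1 pair of arrays on that day. Jdp2 differed by 0.51 ± 0.16 (limma adjusted p = 0.243), with 8.54, 8.15 and 8.47 in the knockdown controls, against 7.95 in the overexpression control. Chac1 stood at 8.92, 9.21 and 8.88 in the knockdown controls, against 7.73 in the overexpression control. The fitted Chac1 baselines differed by 1.34 ± 0.67 (limma adjusted p = 0.473), and by 1.05 to 1.61 over the 24 alternative settings. With dox Chac1 stood at 7.59, 8.70 and 7.70 in the knockdown line, against 7.49 in the overexpression line. Eif4ebp1 differed by 0.54 ± 0.30 (adjusted p = 0.528). Vldlr (-0.30 ± 0.47) and Atf5 (-0.03 ± 0.21) were on the other side. Without both replicate 2 arrays of the knockdown line 4 were lower and the median was 0.28. On day 4 the streak marker sum was 1285 to 7046 in the knockdown line, against 10667 and 12106 in the overexpression line, and 8 of 8 streak markers were lower in the knockdown line (median -2.13, 2 passing). Pluripotency markers were higher in 10 of 12 (median 0.92) and visceral and primitive endoderm markers in 9 of 11 (median 0.53), with 0 passing. The part of these markers in the line difference was not tested.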

How the data were processed

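Total RNA from 12 embryoid body samples was biotin-labelled and read on the Affymetrix Mouse Gene 1.0 ST array, 1 sample per array, per the labels. The deposited values are linear intensities, 1 for each of 35512 probe sets, and how they were background corrected, summarised and normalized is not given in the sources used here. The mean of an array lay between 677.3 and 696.6. Values were taken as log2(intensity + 1), and since array medians of the deposited values spanned 0.324 on the log2 scale, above the limit of 0.1, all arrays were quantile normalized. The platform annotation named 1 gene for 21789 probe sets, several for 1621 and none for 12102, and 21698 of the 21789 matched the RefSeq gene table. Genes with a mean below the 20th percentile (log2 6.46) were not tested.

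One limma 3.58.1 model in R 4.3.3 (lmFit, eBayes) covered all 12 arrays, with a baseline per line and day and 1 dox effect per line, without a replicate block (7 residual and 3.5 prior degrees of freedom). P-values were Benjamini-Hochberg adjusted over 15950 genes with a threshold of 0.05. Single genes were also compared by exact two-sided permutation over arrays. The number of arrays limits the precision, and a log2 difference understates the change of dim genes. The genes of the set, their groups and the lists beside them were chosen with earlier results of these data known, so no list was tested. Genes described with full statistics were Atf4, the 2 with the largest dox difference per group and line, the 3 with the smallest p per direction for day and line, and those opposite in sign between lines in every replicate number. Jdp2 and other genes named beyond that rule in a comparison were chosen after their values were seen. The fit was tried on simulated arrays with known differences put in. Their noise was independent between arrays, so the trial cannot show how the fit handles spread shared by same-numbered arrays. Promoter windows and their letters are RefSeq's (GRCm38.p6), and 34 of 40 genes matched by symbol, 6 of them with several windows. Only the part before the start is printed. Alternatives were other scalings, a pseudocount of 16, other filters (none, or the 40th percentile), array weights, the mean of a gene's probe sets, each line alone, day 5 alone, a replicate block and leaving out arrays.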

Additional observations from a re-analysis of the deposited data

Results flagged for a closer look

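The 8 genes below were lower with dox in each of the 3 same-numbered comparisons of the knockdown line and higher in each of the 3 of the overexpression line, a pattern that 393 of 15950 tested genes had (2.46%). The replicate numbers were not shown to pair arrays, and in limma none of the 8 differences between the lines passed the test (adjusted p = 1.00, with 0 of 15950 genes passing). Each difference below is the knockdown dox effect minus the overexpression dox effect on the log2 scale, with its SE. For Atf4 it was -0.36 ± 0.36, from -0.30 with knockdown and 0.06 with overexpression. For Nupr1 it was -0.62 ± 0.52, from -0.33 with knockdown and 0.29 with overexpression. Sesn2 had -0.58 ± 0.55, from -0.35 with knockdown and 0.22 with overexpression. Asns had -0.32 ± 0.42, from -0.25 with knockdown and 0.07 with overexpression. Cth had -0.28 ± 0.26, from -0.18 with knockdown and 0.10 with overexpression. Gpt2 had -0.47 ± 0.75, from -0.40 with knockdown and 0.07 with overexpression. Slc7a5 had -0.34 ± 0.65, from -0.26 with knockdown and 0.07 with overexpression. Slc3a2 had -0.24 ± 0.24, from -0.13 with knockdown and 0.11 with overexpression. Without the day 5 dox array of replicate 2 of the overexpression line the difference was -0.085 for Atf4, -0.27 for Nupr1, -0.15 for Sesn2, -0.0019 for Asns, -0.11 for Cth, 0.10 for Gpt2, 0.13 for Slc7a5 and -0.087 for Slc3a2. That setting kept the replicate 2 control, in a fit without a replicate block.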

How the results depend on the processing

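Under the 11 alternatives that keep all arrays or one line or day, 533 values were recomputed, counts of genes and medians among them. No difference of a single named gene changed sign against its main value. Of the 533 values, 512 stayed on the same side of the threshold or close to the main value. Close meant within 0.5 log2 for a median over the set and within a set ratio for a count. The limit for medians exceeds the main dox medians (-0.25 with knockdown and 0.05 with overexpression), so the 512 cannot show that those held. A single gene counted as unchanged if its sign and its call were the same. Median centring gave 33 genes called for day and 4 genes of the set lower between lines. No filter gave 26 for day and 29 between lines, and the values as deposited gave 30 between lines. Array weights called 2562 genes for day (13 of the set), 201 for overexpression dox (1 of the set, Fgf21, -0.52) and 1170 between lines (1 of the set, Jdp2, with 5 lower). Each line alone called 0 genes for dox, and so did day 5 alone. The cause of these changes was not tested. Replicate numbers were not taken to pair the arrays, because the labels state no pairing. Deviations of same-numbered knockdown arrays correlated at 0.602, 0.438 and 0.052 (replicates 1, 2 and 3), and those of same-numbered day 5 overexpression arrays at 0.785. The median SE of the 39 genes for knockdown dox was 0.30 in the main fit and 0.08 with a replicate block. With a replicate block within each line, 22 of the 39 genes were lower at an unadjusted p under 0.05 in the knockdown line (56.4%, against 4.65% of tested genes), 20 in the difference between lines (51.3%, against 4.01%) and 3 were higher in the overexpression line, with 0 of the set called in each (smallest adjusted p = 0.159), 1 gene called for dox in each line, and no direction changed.

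Leaving out arrays, 1 or 1 pair at a time, changed the sign of 30 of 763 values of single genes and of 5 of 88 medians over the set, none of them for knockdown dox. Genes called ranged from 0 to 350 for day, 0 to 80 between lines, and 0 to 1 for dox in either line. Over the set, day had a median of -0.0701 to 0.948, 3 to 25 lower and 0 to 23 called. The highest day counts came without the replicate 1 arrays, a setting that cannot tell day from replicate. Overexpression dox had 2 to 38 lower (median -0.27 to 0.37), the difference of dox effects 15 to 39 (median -0.55 to 0.071) and the line comparison 1 to 4, while knockdown dox had 32 to 38 lower (median -0.34 to -0.14). Overexpression dox ranged from -0.22 to 0.34 for Atf4, -0.068 to 0.29 for Cth, -0.50 to 0.70 for Mthfd2, -0.062 to 0.64 for Nupr1, -0.16 to 0.42 for Ppp1r15a, -0.20 to 0.67 for Sesn2, -0.66 to 1.07 for Slc6a9, -0.16 to 0.47 for Slc7a3 and -0.48 to 0.32 for Vldlr. The difference of dox effects ranged from -1.03 to 0.10 for Gpt2 and -0.81 to 0.13 for Slc7a5, and Atf5 from -0.34 to 0.17 for day and -0.19 to 0.29 between lines. Dim genes such as Aldh1l2 and Slc7a11 lie near the filter, where signal limits the precision.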
